A study of Mus musculus with 27 samples.

Results

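Of the 27 RNA-seq libraries of the series, 4 make up the comparison described here. They are the 2 libraries of immortalized embryonic fibroblasts of the mouse (iMEFs) with a conditional knockout (cKO) allele of *Setdb1*, taken at day 6 after 4-hydroxytamoxifen (4OHT) and the 2 libraries of the same cells left untreated, with no inhibitor in either group. The libraries were chosen by their treatment labels alone. All 4 come from 1 line that carries the conditional *Setdb1* allele, which the study's methods describe as recloned from single cells, and 4OHT added at day 0 deletes the gene. An effect of 4OHT itself and an effect of the deletion cannot be told apart, since cells without the conditional allele that received 4OHT were not analysed here. The other 6 libraries of the inhibitor experiment, in groups of 2, received the MEK inhibitor PD0325901 (PD, 1 µM for 24 h), 4OHT and PD, or the histone deacetylase inhibitor TSA (150 nM for 24 h). They entered the fit to estimate the spread. The same 4OHT treatment under a control siRNA (4OHT + siCtrl against siCtrl, 2 libraries each) shares no library with the comparison and is set beside it.

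Setdb1 is a histone methyltransferase that places the silencing mark H3K9me3, and in many cells this mark keeps endogenous retroviruses (ERVs) quiet. Nucleic acids of viral origin are recognised by sensors of the RIG-I and cGAS families, which lead through interferon regulatory factors to type I interferon. Interferon acts through Jak kinases and transcription factors on interferon-stimulated genes, whose promoters often hold the interferon-stimulated response element, a repeat of GAAA with a short spacer. Fibroblasts are known for making collagens and other matrix, and respond to Wnt, BMP and TGF-β ligands.

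Values are FPKM, the fragments mapped to a gene scaled by its length and by the total of the library, and a gene was tested where it reached 1 FPKM in 2 libraries of the inhibitor experiment. Fold changes are on the scale of log2(FPKM + 0.1), which understates the change of low genes. A gene was called with an adjusted p under 0.05 in limma and a change of at least 2-fold. The p-values measure the spread between these libraries, which may be technical, as the labels do not say that replicates were separate cultures. The depth implied by the confidence intervals of single-exon genes lay between 11000000 and 12800000 fragments over the inhibitor experiment and between 13900000 and 15700000 over the siRNA experiment. Log2 values correlated across genes at 0.975 between the untreated libraries and at 0.963 between the day 6 libraries. Loci in which the authors' assembly joined neighbouring genes were measured as 1 feature, so that the genes of a joined name cannot be told apart.

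The response was led by interferon-stimulated genes, and the promoters of the 5 genes with the highest fold change among the genes of the text that hold the element are printed here to show it. The sequences are those of RefSeq (GRCm38.p6), 250 bases before to 50 bases after the start site, 5′ to 3′ on the strand of the gene, and capitals mark the element, searched as GAAA, any 2 bases and GAAA, on either strand. Rsad2 (viperin, an antiviral enzyme) lies at chr12:26456403-26456702 on the minus strand, Oas3 (a sensor enzyme that makes oligoadenylate) at chr5:120777610-120777909 on the minus strand, Cxcl10 (a chemokine for T cells) at chr5:92348840-92349139 on the minus strand, Ddx60 (a helicase) at chr8:61927837-61928136 on the plus strand, and Isg15 (a ubiquitin-like modifier) at chr4:156200769-156201068 on the minus strand.
Rsad2: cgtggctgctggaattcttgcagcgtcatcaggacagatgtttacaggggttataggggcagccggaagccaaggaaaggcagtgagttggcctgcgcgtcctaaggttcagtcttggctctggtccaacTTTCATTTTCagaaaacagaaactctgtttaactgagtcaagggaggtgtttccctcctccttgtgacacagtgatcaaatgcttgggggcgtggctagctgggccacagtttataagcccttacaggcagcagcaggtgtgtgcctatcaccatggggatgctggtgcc
Oas3: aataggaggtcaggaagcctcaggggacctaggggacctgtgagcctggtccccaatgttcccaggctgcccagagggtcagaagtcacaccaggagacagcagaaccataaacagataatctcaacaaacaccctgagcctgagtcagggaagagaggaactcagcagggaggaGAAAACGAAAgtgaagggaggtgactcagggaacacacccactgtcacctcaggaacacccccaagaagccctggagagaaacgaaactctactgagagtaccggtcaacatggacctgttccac
Cxcl10: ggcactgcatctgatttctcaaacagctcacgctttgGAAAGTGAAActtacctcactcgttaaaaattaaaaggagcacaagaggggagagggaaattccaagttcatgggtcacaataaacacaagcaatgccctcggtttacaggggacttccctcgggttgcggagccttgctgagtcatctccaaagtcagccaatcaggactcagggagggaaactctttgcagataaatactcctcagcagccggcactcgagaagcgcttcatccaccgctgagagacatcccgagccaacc
Ddx60: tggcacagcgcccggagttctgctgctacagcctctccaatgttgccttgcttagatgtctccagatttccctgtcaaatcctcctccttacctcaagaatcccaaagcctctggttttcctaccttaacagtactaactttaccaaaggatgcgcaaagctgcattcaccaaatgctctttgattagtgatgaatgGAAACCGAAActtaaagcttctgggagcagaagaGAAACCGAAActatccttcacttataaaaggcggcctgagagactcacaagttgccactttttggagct
Isg15: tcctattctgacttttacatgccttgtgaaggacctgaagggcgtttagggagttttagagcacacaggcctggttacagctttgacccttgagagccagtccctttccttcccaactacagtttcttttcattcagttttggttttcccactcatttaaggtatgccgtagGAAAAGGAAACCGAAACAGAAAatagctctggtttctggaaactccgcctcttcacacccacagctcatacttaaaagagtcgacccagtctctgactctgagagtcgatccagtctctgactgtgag
Rsad2, Oas3 and Cxcl10 held 1 match each, Ddx60 held 2, and Isg15 held 3 that overlap. Of 8297 tested genes with a promoter in the table, 219 held a match (2.64%), against 943 of all 27025 promoters (3.49%). Among genes called higher 33 of 389 did (8.48%), among those called higher by at least 8-fold 16 of 68 (23.5%), and among genes called lower 12 of 488 (2.46%). Of the called higher members of the interferon lists 15 of 42 held a match (35.7%), and of the called higher genes outside those lists 18 of 347 (5.19%). Of the 12 genes named below for the highest fold change, 7 had a promoter in the table and 2 of these a match. A match is a sequence in this window and was not tested as a site of action.

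At day 6, 576 of the 11635 genes tested were called higher (4.95%) and 713 lower (6.13%) by limma. The median log2 fold change of all genes tested was 0.0004. The genes that rose were low beforehand, with a median of 2.35 FPKM in untreated cells and 10.2 FPKM at day 6, while those that fell had medians of 8.76 and 2.47 FPKM. All genes tested had a median of 11.5 FPKM in untreated cells. The large changes were mostly increases, as 115 genes were called higher and 71 lower by at least 8-fold, and 42 higher and 24 lower by at least 32-fold. A gene under 1 FPKM in both untreated libraries was tested only where it reached 1 FPKM in treated libraries. The low levels before treatment and the share of large increases therefore depend partly on this filter. Groups of 2 separate easily, since in 4021 genes (34.6%) both day 6 libraries lay above both untreated libraries and in 3970 (34.1%) below, together 68.7% of the genes tested. The number of calls was 719 without untreated replicate 1 and 689 without untreated replicate 2, against 1289 in all 4 libraries.

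**Figure D1:**
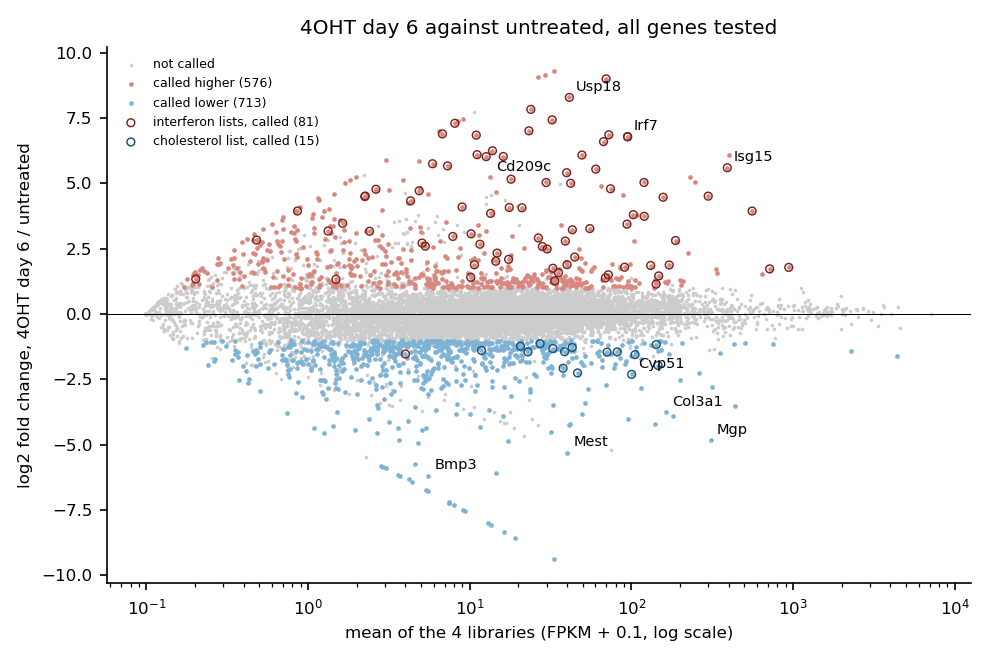
Log2 fold change at 4OHT day 6 (y axis) against the mean FPKM + 0.1 of the 4 libraries (x axis, log scale) for the 11635 genes tested. The 576 genes called higher are red and the 713 called lower blue, and rings mark called members of the interferon lists (81) and of the cholesterol list (15). The interferon members lie among the largest increases, and the cholesterol members among decreases of genes at high levels.

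The targeted gene itself, Setdb1 (chr3:95127447-95161124, mm9), had 8.76 and 10.1 FPKM in the untreated libraries. It was listed at 0 in day 6 replicate 1 and had 5.30 FPKM in replicate 2. Both day 6 libraries lay below both untreated libraries, and the gene was not called (log2 fold change −3.69, SE 1.49, adjusted p = 0.111 in limma). With day 6 replicate 2 alone the log2 fold change was −0.82 (adjusted p = 0.0542 in limma), and with replicate 1 alone, where it rests on the listed 0, it was −6.57 (adjusted p = 5.92e-05). In the siRNA experiment the levels were 7.40 and 6.48 FPKM with siCtrl and 7.58 and 5.00 FPKM with 4OHT + siCtrl (log2 fold change −0.17, adjusted p = 0.661 in limma). Within the inhibitor experiment Setdb1 was also listed at 0 in both libraries with 4OHT and PD, against 5.34 and 5.56 FPKM with PD alone. The FPKM cover the whole gene and do not show the deleted exons. Loci marked as failed were left out, but a listed 0 may still not mean that RNA was absent. The deletion therefore could not be checked from these values in either experiment.

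Among the genes of H3K9 silencing few were called. Of 32 members tested, with Setdb1, 1 was called higher and none lower by limma. Of all genes tested 4.95% were called higher and 6.13% lower. Of the members, 14 had an unadjusted p under 0.05, a value that 4420 of all 11635 genes (38.0%) also had. The median log2 fold change of the members was 0.01. Setdb1 (log2 fold change −3.69) and the joined feature that holds Setdb2 (1.46, adjusted p = 0.0987 in limma) passed 2-fold by estimate without a call. The called gene was Daxx, a histone H3.3 chaperone, which rose from 15.6 and 17.3 FPKM to 47.5 and 79.2 FPKM (log2 fold change 1.89, SE 0.21, adjusted p = 0.00152 in limma). Atf7ip, the partner of Setdb1, had 15.7 and 16.9 FPKM in untreated cells and 25 and 35.9 FPKM at day 6, and its change of 0.87 on the log2 scale missed the 2-fold limit. Trim28, the scaffold that recruits Setdb1, had 89.5 and 90.8 FPKM against 125 and 123 FPKM (log2 fold change 0.46). Dnmt1, the maintenance DNA methyltransferase, had 81.1 and 86.4 FPKM against 75.2 and 74.1 FPKM and did not pass the test (adjusted p = 0.276 in limma).

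Interferon-stimulated genes rose as a group. The lists of interferon factors, sensors and induced genes hold 139 genes, of which 112 features were tested, 80 were called higher and 1 lower, and the median log2 fold change was 2.70. The lists held 121 features by name, tested or not. They do not hold every gene that interferon can induce, so genes outside them may still be interferon-stimulated. Members under 1 FPKM in both untreated libraries were tested only because they reached 1 FPKM in treated libraries. The counts and medians, here and in the sublists below, therefore depend partly on the filter. In 98 of the 112 both day 6 libraries lay above both untreated libraries, against 34.6% of all genes tested. Among the genes called higher, interferon list members made up 6 of the 12 with the largest fold change, 29 of the 50 and 46 of the 100. They were 11 of the 12 when only genes above 0 FPKM in all 4 libraries and at 2 FPKM or more at day 6 were ranked. All 80 members that rose were higher in day 6 replicate 2 than in replicate 1, by a median of 2.52-fold, as were 299 of the other 496 genes that rose. The median size of the difference between these libraries, in either direction, was 1.33 on the log2 scale in the 80 genes and 0.36 in the 496, and 56 and 70 genes were over 2-fold apart. The list median was 3.26 without day 6 replicate 1 and 2.04 without replicate 2.

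Ifnb1, the gene of interferon β, was listed at 0 in both untreated libraries and had 1.01 and 2.03 FPKM at day 6, which the interval of this single-exon gene puts at 8 and 14 fragments. Among the factors that carry the signal, Irf7 had 1.59 and 1.23 FPKM in untreated cells and 99.5 and 277 FPKM at day 6 (log2 fold change 6.79, SE 0.41, adjusted p = 0.000118 in limma). It was far higher in each day 6 library than in either untreated library. Irf9, joined with Rnf31, rose from 15.0 and 16.6 FPKM to 59.1 and 87.7 FPKM (log2 fold change 2.18, SE 0.17, adjusted p = 0.000347 in limma). Irf5 was listed at 0 in both untreated libraries and had 12.7 and 19.3 FPKM at day 6. In all, 7 of the 19 transcription factors and receptors tested rose and none fell.

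The sensors of foreign nucleic acid rose in 11 of 16 cases, with a median log2 fold change of 1.77. Zbp1, a sensor of Z-form nucleic acid, had 1.38 and 2.11 FPKM in untreated cells and 35.3 and 202 FPKM at day 6 (log2 fold change 5.55, SE 0.84). Ddx60 had 0.122 and 0.161 FPKM against 6.8 and 21.7 FPKM (log2 fold change 5.67, SE 0.55). The day 6 replicates of these sensors lay well apart from each other, and both were above the untreated libraries. Without replicate 2 the log2 fold changes were 4.29 for Zbp1 and 4.84 for Ddx60.

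Among called genes above 0 FPKM in all 4 libraries and at 2 FPKM or more at day 6, the largest increase was that of the joined locus of Oas1a and Oas1g, enzymes that activate RNase L, from 0.0841 and 0.136 FPKM to 49.6 and 229 FPKM (log2 fold change 9.0, SE 0.64, adjusted p = 0.000237 in limma). Members of this family share sequence, and reads with several hits were placed at 1 position, so their single values are uncertain. All 7 Oas and Rnase L features tested rose, with a median log2 fold change of 6.85. Usp18, the protease that removes Isg15 and dampens the receptor, rose from 0.0452 and 0.299 FPKM to 48.9 and 116 FPKM (log2 fold change 8.29, SE 0.53, adjusted p = 0.000147 in limma). Isg15 itself rose from 14.9 and 15.1 FPKM to 526 and 1013 FPKM (log2 fold change 5.60, SE 0.29, adjusted p = 5.13e-05 in limma), and 5 of the 6 genes of its pathway did. In these genes the untreated libraries were near each other on the FPKM scale and far below day 6.

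Of 39 antiviral effectors tested 30 rose and 1 fell. Mx2, an antiviral GTPase, had 0.0957 and 0.0352 FPKM in untreated cells and 17.6 and 77.4 FPKM at day 6 (log2 fold change 7.83, SE 0.71). Rsad2 had 0.217 and 0.152 FPKM against 17.8 and 74.5 FPKM (log2 fold change 7.01, SE 0.70). Ifitm3, a membrane protein that hinders viral entry and the most abundant of these genes, rose from 332 and 323 FPKM to 891 and 1322 FPKM (log2 fold change 1.73, SE 0.28). The member that fell was Ifitm1, a relative of Ifitm3, with 6.50 and 5.21 FPKM against 1.82 and 2.09 FPKM (log2 fold change −1.53, adjusted p = 0.0296 in limma). Its call was lost when any of the 4 libraries was left out, with adjusted p-values from 0.0832 to 0.149. All 10 interferon-induced GTPases tested rose, with a median log2 fold change of 4.12. Irgm1, the most abundant of them, had 16 and 16.2 FPKM against 167 and 282 FPKM (log2 fold change 3.74, SE 0.30).

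Antigen presentation by MHC class I moved with these genes, as 11 of 16 features rose with a median log2 fold change of 1.64. Psmb8, a subunit of the immunoproteasome, had 1.88 and 1.76 FPKM in untreated cells and 27.7 and 137 FPKM at day 6 (log2 fold change 5.01, SE 0.78). Tap1, a subunit of the peptide transporter, had 1.70 and 1.67 FPKM against 19 and 47.5 FPKM (log2 fold change 4.08, SE 0.36). The feature of B2m, the light chain of MHC class I, joined with Trim69, rose from 400 in both untreated libraries to 942 and 2023 FPKM (log2 fold change 1.79, SE 0.33). Its call was lost without untreated replicate 1 (adjusted p = 0.055 in limma) and without untreated replicate 2 (0.0575).

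Of 18 chemokines and cytokines tested, 6 rose and 3 fell, where 4.95% of all genes tested rose and 6.13% fell. Cxcl10 rose from 11.1 and 10.3 FPKM to 465 and 1131 FPKM (log2 fold change 6.07, SE 0.39, adjusted p = 0.000147 in limma). Ccl5, a chemokine for T cells and monocytes whose feature includes Heatr9, rose from 9.0 and 10.4 FPKM to 187 and 720 FPKM (log2 fold change 5.23, SE 0.63). The genes that fell were named after their values were seen. Cxcl12, the ligand of Cxcr4, had 110 and 114 FPKM in untreated cells and 39.0 and 37.7 FPKM at day 6, a call lost without untreated replicate 1 (adjusted p = 0.0517 in limma) or 2 (0.0575). Il18, a cytokine processed by inflammasomes, had 15 and 10.1 FPKM against 1.29 and 2.60 FPKM (log2 fold change −2.67, SE 0.38). The third was Cxcl5, at −3.04 on the log2 scale, which was lost without untreated replicate 2 (adjusted p = 0.0526 in limma). Of 16 NF-κB response genes 3 rose and none fell, with a median log2 fold change of 0.29. The calls, those of Tnfaip2, Tnfaip3 and Traf1, were lost without untreated replicate 2. That of Tnfaip3 was lost when any of the 4 libraries was left out.

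**Figure D2:**
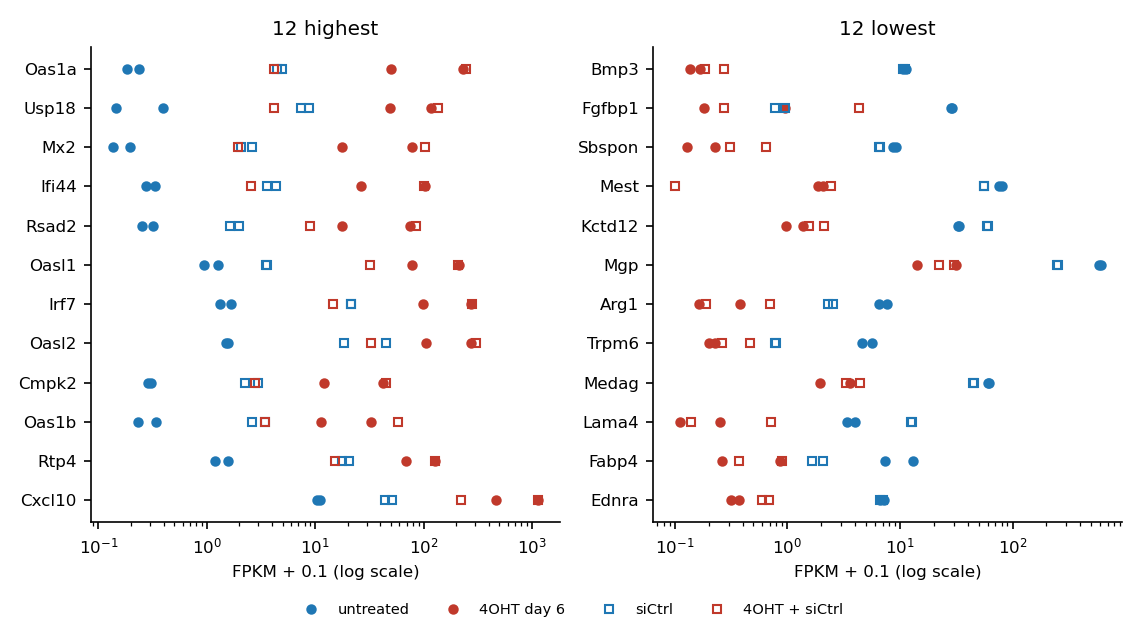
FPKM + 0.1 (x axis, log scale) of called genes above 0 FPKM in all 4 libraries and at 2 FPKM or more in the higher group, for the 12 that rose most and the 12 that fell most. Each point is a library, with filled circles for the inhibitor experiment, open squares for the siRNA experiment, blue for controls and red for 4OHT. Day 6 replicate 1 is the lower of the day 6 points in all 12 of the highest genes, and 1 of the 4OHT + siCtrl libraries lies near the controls in most of them. Joined features carry the name of their leading gene.

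Of the genes that rose, 496 were in no interferon list, a set that may still hold interferon-stimulated genes. Cd209c, a lectin of the DC-SIGN family, was chosen after its value was seen, as were Sprr1a and P2rx7. It had 0.579 and 0.580 FPKM in untreated cells and 21.7 and 29.9 FPKM at day 6 (log2 fold change 5.23, SE 0.23, adjusted p = 1.86e-05 in limma). The joined feature of Sprr1a and Sprr1b, precursors of the cornified envelope of keratinocytes, rose from 13.3 and 15.3 FPKM to 474 and 484 FPKM (log2 fold change 5.06, SE 0.90). Its call was lost without untreated replicate 1 (adjusted p = 0.0514 in limma). P2rx7, an ion channel gated by ATP, had 0.362 and 0.132 FPKM against 7.43 and 11.5 FPKM (log2 fold change 4.84, SE 0.48). Foxc2, a transcription factor of mesenchyme, had 0.197 and 0.278 FPKM against 5.94 and 4.63 FPKM (log2 fold change 4.00, SE 0.45). In these 4 features both day 6 libraries were far above both untreated ones.

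The genes that fell furthest included secreted and growth-regulating proteins. Bmp3, a member of the BMP family, had 11.3 and 10.5 FPKM in untreated cells and 0.0353 and 0.0676 FPKM at day 6 (log2 fold change −6.19, SE 0.81, adjusted p = 0.00259 in limma). Mest, an imprinted gene, had 80.1 and 76.4 FPKM against 1.77 and 1.99 FPKM (log2 fold change −5.31, SE 0.32, adjusted p = 0.000118 in limma). Mgp, the matrix Gla protein that inhibits calcification, had 589 and 607 FPKM against 14.2 and 31.1 FPKM (log2 fold change −4.82, SE 0.91). The untreated libraries lay within a narrow range of each other in each of these genes, and day 6 lay far below. The call of Mgp was lost without untreated replicate 1 (adjusted p = 0.0553 in limma) or 2 (0.0591). Trpm6, a magnesium channel, had 5.51 and 4.5 FPKM in untreated cells and 0.101 and 0.129 FPKM at day 6 (log2 fold change −4.56, SE 0.31). Ednra, the endothelin A receptor, had 6.50 and 7.09 FPKM against 0.268 and 0.213 FPKM (log2 fold change −4.34, SE 0.31).

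A set of 4 further genes of BMP, Hedgehog and Wnt signalling were chosen after their values were seen. Bmp4, a BMP ligand, fell from 83.4 and 74.4 FPKM to 4.21 and 4.24 FPKM (log2 fold change −4.19, SE 0.22, adjusted p = 6.27e-05 in limma). Gas1, a co-receptor of Hedgehog, fell from 186 and 172 FPKM to 11.8 and 10.2 FPKM (log2 fold change −4.01, SE 0.21). Fzd1, a Wnt receptor, fell from 91.9 and 92.8 FPKM to 6.56 and 6.42 FPKM (log2 fold change −3.81, SE 0.25). Apcdd1, an inhibitor and target of Wnt, fell from 23.9 and 24.8 FPKM to 1.84 and 1.82 FPKM (log2 fold change −3.66, SE 0.14). The replicates of these genes lay close to each other in both groups.

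Among 19 imprinted features tested, none rose and 5 fell (4.95% and 6.13% of all genes tested), with a median log2 fold change of −0.48. Besides Mest these were H19 (joined with Mir675), Dcn, Igf2 and Peg10. H19, a maternally expressed noncoding RNA, had 261 and 272 FPKM in untreated cells and 13.0 and 16.3 FPKM at day 6 (log2 fold change −4.19, SE 0.46). Igf2, the paternally expressed growth factor of the same cluster, had 200 and 201 FPKM against 30.1 and 25.9 FPKM (log2 fold change −2.84, SE 0.31). Both genes of this cluster, which are expressed from opposite alleles, were lower in each day 6 library. Gnas, the most abundant imprinted gene tested, had 531 and 545 FPKM against 551 and 442 FPKM and did not pass the test (adjusted p = 0.662 in limma).

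Genes of the fibroblast matrix fell. Of 28 collagen and matrix genes tested, 11 fell and 1 rose (6.13% and 4.95% of all genes tested), with a median log2 fold change of −0.65. Col3a1, the chain of type III collagen, had 302 and 308 FPKM in untreated cells and 19.4 and 26.1 FPKM at day 6 (log2 fold change −3.76, SE 0.39, adjusted p = 0.00111 in limma). Col6a2, a chain of type VI collagen, had 336 and 350 FPKM against 51.8 and 68.5 FPKM (log2 fold change −2.52, SE 0.17). Col1a1, the main chain of type I collagen, was chosen after its value was seen and kept a high level, with 668 and 717 FPKM against 322 and 327 FPKM (log2 fold change −1.09, SE 0.11). The member that rose was Tnc, the adhesion-modulating tenascin C, also chosen after its value was seen, from 19.5 and 20.7 FPKM to 45.9 and 59.7 FPKM (log2 fold change 1.38, SE 0.19). Sparc, the most abundant gene of the list, had 946 and 922 FPKM against 706 and 713 FPKM and did not pass the test (adjusted p = 0.113 in limma).

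The label of fibroblasts was checked against markers of these and of other cell types. Of 11 fibroblast markers tested 7 fell and none rose, and their summed level over the 12 features found was 4077 and 4332 FPKM in untreated cells and 3042 and 2953 FPKM at day 6. Vim, the most abundant of them, had 931 and 1085 FPKM against 1498 and 1419 FPKM and was not called (log2 fold change 0.54). The 12 haematopoietic markers summed to between 4.4 and 5.03 FPKM in the 4 libraries, and Cd3e, Adgre1, Cd52 and Vav1 were at 0 in all of them. The 11 epithelial markers summed to 9.71 and 8.01 FPKM in untreated cells and 51.9 and 19.9 FPKM at day 6, through Krt19, a keratin, which had 5.97 and 5.28 FPKM against 42.7 and 17.3 FPKM. Krt19 was the 1 of 6 epithelial markers tested that was called, and its call was lost without any of untreated replicate 1, untreated replicate 2 and day 6 replicate 1 (adjusted p from 0.0616 to 0.0862 in limma). Of the 12 muscle and fat markers 5 were tested, of which 3 were called higher and 1 lower (median log2 fold change 2.04), and they summed to 9.42 and 14.5 FPKM in untreated cells and 8.97 and 7.48 FPKM at day 6. Pparg, the regulator of fat cell differentiation, had 1.72 and 0.838 FPKM against 6.54 and 4.88 FPKM (log2 fold change 2.14), a call lost without untreated replicate 2 (adjusted p = 0.0597 in limma). Fabp4, a lipid carrier of fat cells, had 7.20 and 13.0 FPKM against 0.164 and 0.754 FPKM (log2 fold change −4.36, adjusted p = 0.00337 in limma). Des and Acta1, of the muscle cytoskeleton, were called higher (log2 fold changes 2.04 and 2.28) at levels under 1 FPKM in all 4 libraries, and Acta1 was lost without any of untreated replicate 1, untreated replicate 2 and day 6 replicate 1 (adjusted p from 0.0577 to 0.0719 in limma). Myog, Myf5, Actc1, Adipoq and Plin1 were at 0 in all 4. Of 3 endothelial markers tested, Kdr, a receptor for VEGF, was called higher, also at under 1 FPKM (log2 fold change 2.34), and none was called lower. The 9 endothelial markers summed to 16.5 and 18.4 FPKM in untreated cells and 12.5 and 17.1 FPKM at day 6. None of the 3 pluripotency and 5 neural markers tested was called by limma, with 2 and 3 at an unadjusted p under 0.05. The 10 pluripotency markers summed to 1.31 and 1.64 FPKM in untreated cells and 2.88 and 3.28 FPKM at day 6. The 11 neural markers summed to 186 and 181 FPKM against 263 and 250 FPKM. Their most abundant feature, Tubb3 joined with Tcf25, had 148 and 143 FPKM against 221 and 212 FPKM (log2 fold change 0.57). In bulk libraries, fewer cells of a type and less RNA per cell cannot be told apart.

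Of 30 contractile and TGF-β response genes tested, 11 rose and 2 fell (4.95% and 6.13% of all genes tested). Their median log2 fold change was −0.10. Ltbp2, which binds the TGF-β complex in the matrix, rose from 2.22 and 2.44 FPKM to 13.5 and 9.39 FPKM (log2 fold change 2.23, SE 0.25, adjusted p = 0.0014 in limma). Ctgf, a matricellular growth factor, had 41 and 40.7 FPKM in untreated cells and 153 and 160 FPKM at day 6. Tagln, an actin-binding protein of smooth muscle, had 142 and 168 FPKM against 574 and 448 FPKM. Both genes were higher in each day 6 library, and both calls were lost when any of the 4 libraries was left out, with adjusted p-values from 0.0835 to 0.115 for Ctgf and from 0.0642 to 0.124 for Tagln in limma. In the siRNA experiment 1 of these 30 genes was called higher and 9 lower.

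Cholesterol synthesis fell together. Of 23 genes of cholesterol synthesis and uptake tested, 15 fell and none rose, and the median log2 fold change was −1.28. In all 23 both day 6 libraries lay below both untreated libraries, against 34.1% of all genes tested. Cyp51, the lanosterol demethylase, had 169 and 165 FPKM in untreated cells and 37.4 and 30.2 FPKM at day 6 (log2 fold change −2.31, SE 0.18, adjusted p = 0.000339 in limma). Insig1, the sterol-sensing regulator of the pathway, had 76.5 and 77 FPKM against 17.1 and 15.0 FPKM (log2 fold change −2.25, SE 0.20). Nsdhl, a later enzyme, had 61.4 and 60.5 FPKM against 15.6 and 13.3 FPKM (log2 fold change −2.07, SE 0.14), and Fdps, which makes farnesyl pyrophosphate, had 231 and 234 FPKM against 68.3 and 51.6 FPKM (log2 fold change −1.97, SE 0.19). The groups of these enzymes were far apart, with narrow ranges within each. The list median lay between −1.14 and −1.44 when any of the 4 libraries was left out.

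Of 21 genes of glycolysis and hypoxia tested, 6 fell and none rose (6.13% and 4.95% of all genes tested). Their median log2 fold change was −0.35. Bnip3, a mitophagy receptor induced by hypoxia, had 53.2 and 51.5 FPKM in untreated cells and 11.5 and 10.2 FPKM at day 6 (log2 fold change −2.26, SE 0.14, adjusted p = 0.000137 in limma). Pdk1, a kinase that inhibits pyruvate dehydrogenase, had 15.1 and 14 FPKM against 3.46 and 3.83 FPKM (log2 fold change −1.97, SE 0.17). Gapdh, the most abundant enzyme of the list, had 1402 and 1427 FPKM against 1560 and 1158 FPKM and did not pass the test (adjusted p = 0.842 in limma).

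**Figure D3:**
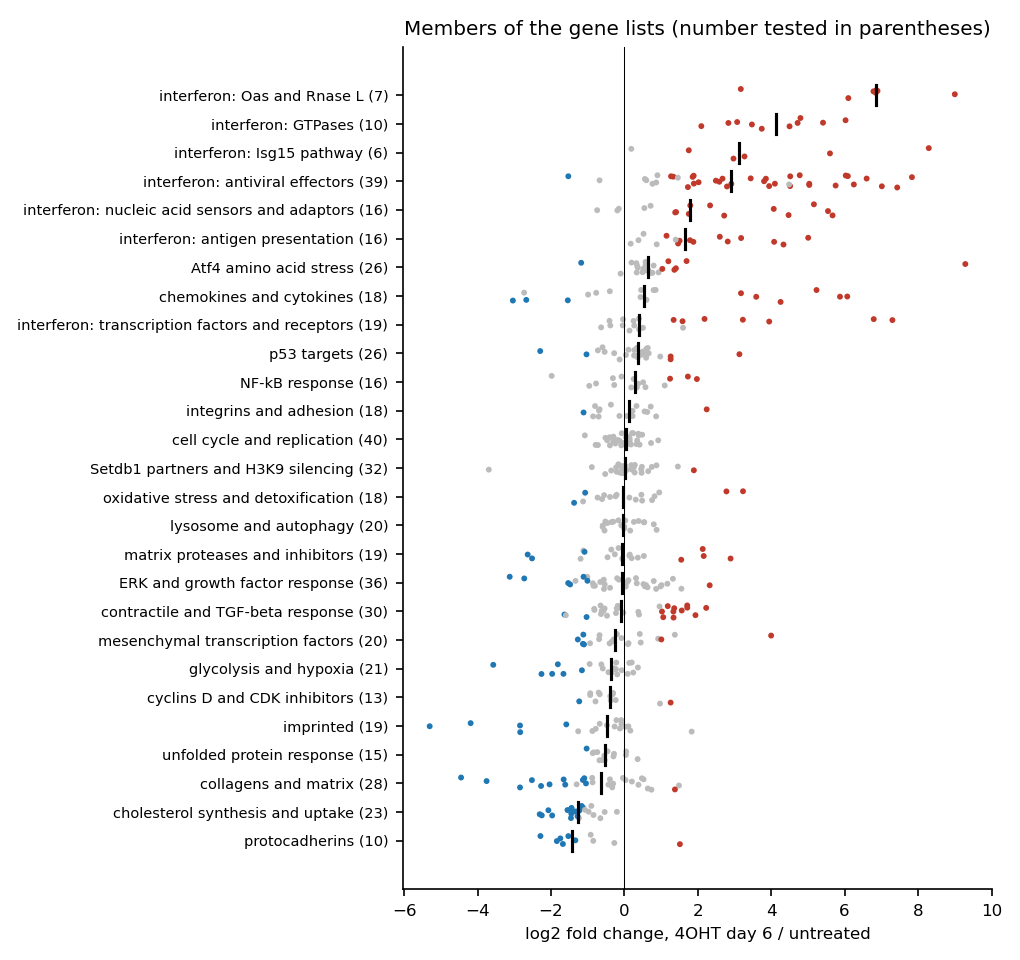
Log2 fold change at 4OHT day 6 (x axis) of each tested member of the gene lists other than those of cell type markers and germline genes (rows, number tested in parentheses), with a black bar at the median. Red members were called higher, blue lower and grey not called. Of the lists drawn, the interferon lists other than that of transcription factors and receptors have the highest medians (1.64 to 6.85), and the protocadherin (−1.43) and cholesterol (−1.28) lists the lowest. Lists with a median near 0, such as the contractile list, can hold called genes on both sides.

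Growth and stress genes gave a mixed picture. None of 40 cell cycle and replication genes was called by limma, 10 had an unadjusted p under 0.05 (38.0% of all genes did), and the median log2 fold change was 0.03. Of 26 p53 targets 3 rose and 2 fell, where 4.95% of all genes tested rose and 6.13% fell. Cdkn1a, the CDK inhibitor p21, rose from 23.2 and 23 FPKM to 62.2 and 49.4 FPKM (log2 fold change 1.26, SE 0.16, adjusted p = 0.00212 in limma), while Btg2, an antiproliferative target, fell from 41.2 and 41.5 FPKM to 7.08 and 9.86 FPKM (log2 fold change −2.29, SE 0.42), a call lost without untreated replicate 1 (adjusted p = 0.0526 in limma) or 2 (0.0552). Of 26 Atf4 targets of amino acid stress 6 rose and 1 fell, with a median log2 fold change of 0.64. Ddit3, the transcription factor CHOP, was listed at 0 in both untreated libraries and had 44.6 and 87.1 FPKM at day 6. It was also listed at 0 in both siCtrl libraries, with 113 and 37.3 FPKM under 4OHT + siCtrl. Trib3, a pseudokinase target of Atf4 and CHOP, had 8.17 and 7.43 FPKM in untreated cells and 19.96 and 32.3 FPKM at day 6 (log2 fold change 1.69, SE 0.22). Of 15 genes of the unfolded protein response none rose and 1 fell.

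Of 36 genes of the ERK and growth factor response 6 fell and 1 rose. Egr3, an immediate early transcription factor, fell from 18.8 and 19.4 FPKM to 2.54 and 3.08 FPKM (log2 fold change −2.73, SE 0.42, adjusted p = 0.00486 in limma). Dusp4, a phosphatase of ERK in the nucleus, rose from 0.509 and 0.491 FPKM to 2.60 and 3.23 FPKM (log2 fold change 2.32, SE 0.31). The groups of both genes did not overlap, as in 68.7% of all genes tested. Of 10 protocadherin features tested 6 fell and 1 rose, with a median log2 fold change of −1.43. Pcdh1, a protocadherin named after its value was seen, was called higher near the floor. It was listed at 0 in both untreated libraries and had 0.153 and 0.220 FPKM at day 6, a call lost when any of the 4 libraries was left out. Pcdhb20, a clustered adhesion molecule, had 1.20 and 1.10 FPKM in untreated cells and 0.133 and 0.179 FPKM at day 6 (log2 fold change −2.29, SE 0.24). At a pseudocount of 1 its change was under 2-fold (log2 fold change −0.89). The genes of this cluster share sequence, so single values are uncertain. Of 20 mesenchymal transcription factors 2 rose and 4 fell. Of 19 matrix proteases and inhibitors 4 rose and 3 fell, and 3 of these calls were in genes listed at 0 in a library. Of 18 detoxification genes 2 rose and 2 fell. Integrins and adhesion genes gave 1 higher and 1 lower of 18, and cyclins D and CDK inhibitors 1 higher and 1 lower of 13. Over all genes tested 4.95% rose and 6.13% fell, and single calls in lists of this size are near these shares. Of 20 lysosome and autophagy genes none was called by limma, with 7 at an unadjusted p under 0.05 (38.0% of all genes did). The 1 germline gene that could be tested of 28 was not called, and its unadjusted p was under 0.05.

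By chromosome, the share of tested genes that fell was highest on X (39 of 356, 11.0%) and 10 (57 of 563, 10.1%), and the share that rose was highest on 17 (40 of 537, 7.45%). These shares are a description and were not tested.

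The same treatment with 4OHT under a control siRNA answers whether these changes were present in libraries of another experiment. There, 285 of 11020 genes were called higher (2.59%) and 374 lower (3.39%), together 5.98%. Of the genes that rose at day 6, 114 were also called higher with 4OHT + siCtrl, 19.8% of the day 6 genes and 40% of the siRNA genes, and 1 was called lower. Of those that fell, 239 were also called lower (33.5% of the day 6 genes and 63.9% of the siRNA genes) and none was called higher. The 2 libraries of 4OHT + siCtrl stood apart from each other. Without 4OHT + siCtrl replicate 2, 287 of the genes that rose were shared (49.8% and 49.0%) and 302 of those that fell (42.4% and 60.2%). Without replicate 1 the numbers were 121 (21.0% and 21.6%) and 247 (34.6% and 43.3%), with 14 and 8 genes called in the opposite direction.

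Among the sets of genes called at day 6, the interferon genes differed most between the 2 libraries of 4OHT + siCtrl. The 80 that rose at day 6 lay above siCtrl by a median of 3.09 on the log2 scale in 4OHT + siCtrl replicate 1, where all 80 were at least 2-fold higher, and at −0.03 in replicate 2, where 7 were 2-fold higher and 4 were 2-fold lower. Irf7 had 21.2 and 21.5 FPKM with siCtrl and 279 and 14.6 FPKM with 4OHT + siCtrl, and Usp18 had 7.25 and 8.62 FPKM against 136 and 4.10 FPKM. The siCtrl libraries were themselves above the untreated libraries in these 80 genes, by a median of 1.36 on the log2 scale, against 0.33 in the other genes that rose and 0 in all genes tested. In all, 5 of 111 interferon features were called higher in the siRNA experiment. No interferon feature was called in the test of the difference between the experiments, which called 0.253% of all genes it tested. The estimated difference on the log2 scale was 5.21 for Irf7 (adjusted p = 0.171 in limma) and 6.71 for Usp18 (0.125). That of Ifnb1 was −0.27. With the 2 libraries of 4OHT + siCtrl this far apart, the absence of calls does not show that the responses were alike.

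The genes that fell had lower medians in both siRNA libraries. The 713 genes had median differences from siCtrl of −1.10 and −0.82 on the log2 scale in 4OHT + siCtrl replicates 1 and 2, with 394 and 308 of them at least 2-fold lower, against medians of 0.07 and 0.06 over all genes. Bmp3 had 11.0 and 10.6 FPKM with siCtrl and 0.0854 and 0.174 FPKM with 4OHT + siCtrl (adjusted p = 0.00218 in limma). Bmp4 had 88.7 and 83.8 FPKM against 8.67 and 10.1 FPKM (adjusted p = 0.0034 in limma), and Fzd1 had 72.7 and 75.6 FPKM against 8.99 and 6.94 FPKM (adjusted p = 0.000344 in limma). In all 3 genes both 4OHT + siCtrl libraries lay far below siCtrl, near the levels of day 6. Cd209c, from the genes that rose, had 0.999 and 0.547 FPKM with siCtrl and 15.8 and 15.2 FPKM with 4OHT + siCtrl (adjusted p = 0.000983 in limma), so that it was high in the library in which the interferon genes were low. The other 496 genes that rose at day 6 differed between the 2 libraries as well. Of these, 277 and 170 were at least 2-fold higher in replicates 1 and 2, with medians of 1.10 and 0.60 on the log2 scale.

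**Figure D4:**
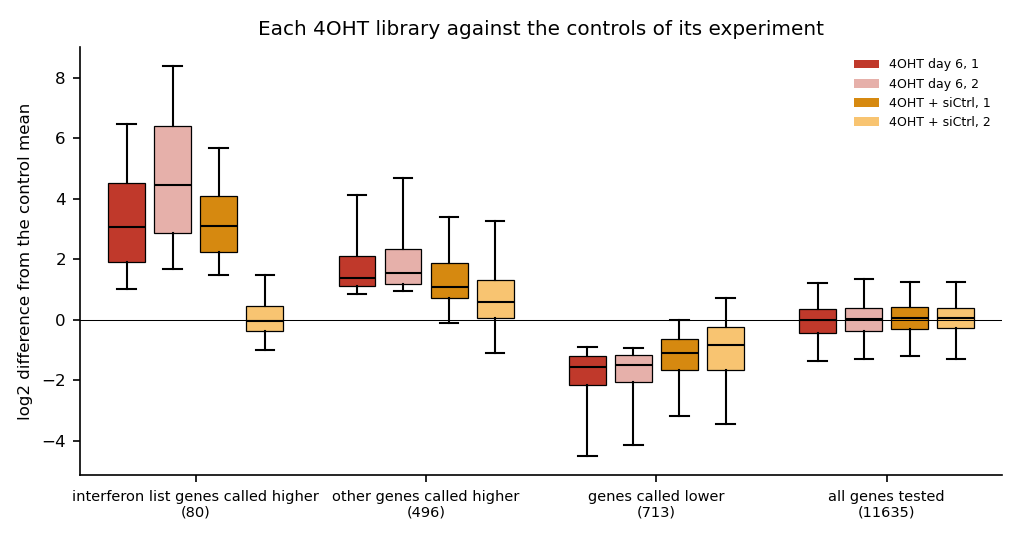
Log2 difference of each 4OHT library from the mean of the controls of its experiment (y axis), for the 80 interferon list genes and the other 496 genes called higher, the 713 called lower and all 11635 tested. Boxes span the quartiles, lines mark medians and whiskers the 5th and 95th percentiles over genes, which are not replicates. The day 6 boxes hold the values that chose these sets and are a description. The interferon genes have a median of −0.03 in 4OHT + siCtrl replicate 2, while the genes called lower have negative medians in all 4 libraries.

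The test of the difference between the responses of the experiments called 30 of 11880 genes (0.253%), of which 17 (0.143%) had the higher response in the inhibitor experiment and 13 (0.109%) the lower. Bnip3 was among them, as it had 12.8 and 13.5 FPKM with siCtrl and 11.2 and 14.2 FPKM with 4OHT + siCtrl (difference −2.21 on the log2 scale, adjusted p = 0.00021 in limma). Its day 6 levels were like those of both siRNA groups, and the untreated libraries were the ones that stood higher. Without 4OHT + siCtrl replicate 1 the number called was 730. The siCtrl libraries differed from the untreated ones by a median of −0.66 on the log2 scale in the list of cholesterol genes and of −0.53 in that of glycolysis and hypoxia, and so were lower. In the siRNA experiment 4 of 23 cholesterol genes and 1 of 21 genes of glycolysis and hypoxia fell.

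The 4OHT response under PD, from PD cells to cells with 4OHT and PD, differed from that without inhibitor in 83 of 11635 genes (0.713%), with 59 higher (0.507%) and 24 lower (0.206%) by limma. No interferon feature was among them, while 7 of 23 cholesterol genes and 3 of 21 genes of glycolysis and hypoxia had the higher response under PD. Bnip3 had 12.1 and 13.2 FPKM with PD and 16.6 and 13.2 FPKM with 4OHT and PD, so that PD alone was near the level of day 6. Cyp51 had 49.8 and 44 FPKM with PD and 34.7 and 24.7 FPKM with 4OHT and PD. The PD groups of both genes lay below the untreated libraries, and those of Cyp51 did not overlap. Bmp4 had 60.3 and 52.2 FPKM with PD and 23.5 and 21.1 FPKM with 4OHT and PD, a smaller fall than without the inhibitor (difference 2.86 on the log2 scale, adjusted p = 0.0115 in limma). With median-ratio scaling the genes with a different response under PD split into 31 higher and 25 lower.

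**Figure D5:**
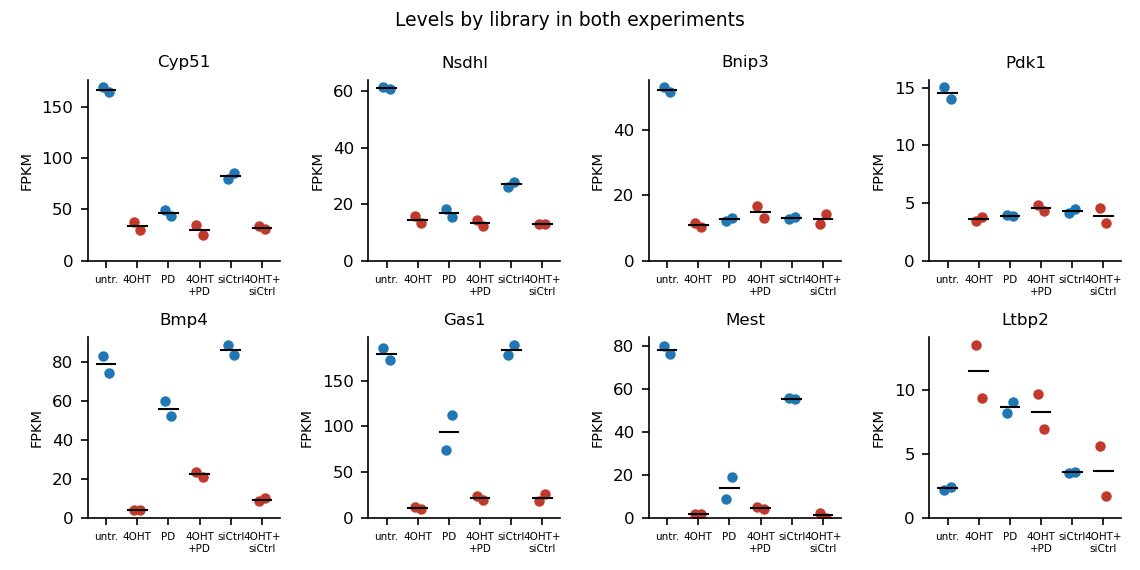
FPKM (y axis, linear from 0) of 8 genes in each library of untreated cells, 4OHT day 6, PD, 4OHT with PD, siCtrl and 4OHT + siCtrl, with a black bar at the mean of 2 libraries. Red marks 4OHT. In Bnip3 and Pdk1 the untreated libraries stand above all other groups shown, while Bmp4 and Gas1 are high in untreated, PD and siCtrl cells.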

How the data were processed

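Reads of TruSeq RNA libraries were aligned by the authors to mm9 with TopHat2 2.0.12, which kept 1 position for reads with several hits, and the deposited FPKM per gene were computed by the authors with Cufflinks on RefSeq genes. Count data were not used here, and depth was taken from the confidence intervals of single-exon genes. Loci that share a symbol were summed, genes that a library joined were kept as 1 feature in all, and failed loci were left out. Values of log2(FPKM + 0.1) were fitted in R 4.3.3 by limma 3.58.1, with a mean per group, trended variances and Benjamini-Hochberg adjustment over all genes tested. All tests were two-sided. With 2 against 2 libraries the smallest exact permutation p is 0.333. Other steps used Python 3.11.15, numpy 2.4.6, pandas 2.3.3 and matplotlib 3.10.9. The fit was tested on simulated data.

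The genes named are Setdb1, its partners and the genes the study names, the 12 called genes with the highest and 12 with the lowest fold change under the limits given in the text, and up to 4 called members and the most abundant member of each list. Some genes under this rule are not reported here. All other genes were chosen after their values were seen. The libraries, lists, tests and most of the other settings were chosen with earlier results of these data known. Promoters were matched by symbol for 8297 of 10929 genes tested under a single name. The header of PD replicate 2 names 2 groups and its label was followed. Tables of the authors' own comparisons (fold changes and p-values) and the libraries depleted of rRNA were not used. Replicate numbers were not taken to pair the samples, as the deviations of same-numbered untreated and day 6 libraries correlated at 0.039. Over the inhibitor experiment, 3 pairs of groups, those among PD, day 6 and 4OHT with PD, correlated at 0.21 to 0.26, and the other 7 at −0.026 to 0.039.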

Additional observations from a re-analysis of the deposited data

Results flagged for a closer look

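The 4OHT response of 14 named genes differed under the MEK inhibitor by the limma test of the difference itself, the response from PD to 4OHT with PD minus that from untreated to day 6. The differences on the log2 scale were 4.26 for Trpm6 (adjusted p = 0.00992), 3.82 for Mest (0.0147), 2.86 for Bmp4 (0.0115), 2.68 for Ednra (0.0485), 2.49 for Bnip3 (0.0019) and 2.27 for Fzd1 (0.044). They were 2.25 for Apcdd1 (adjusted p = 0.0037), 2.2 for Pdk1 (0.0111), 1.93 for Gas1 (0.0432), 1.74 for Nsdhl (0.0115), 1.63 for Cyp51 (0.044) and 1.34 for Cebpb (0.038). Ltbp2 at −2.30 (0.0432) and Tnc at −1.76 (0.0432), which rose at day 6, had the lower response under PD. With PD alone both libraries lay below both untreated libraries in the 12 genes with the higher response under PD, and above them in Ltbp2 and Tnc. Mest had 8.63 and 19.2 FPKM with PD and 4.86 and 4.25 FPKM with 4OHT and PD, and Trpm6 had 0.0805 and 0.0703 FPKM against 0.0337 and 0.0497 FPKM. Pdk1 had 3.96 and 3.84 FPKM with PD and 4.84 and 4.35 FPKM with both. Ltbp2 had 8.24 and 9.08 FPKM with PD and 9.65 and 6.95 FPKM with both, and Tnc had 76.4 and 77.9 FPKM against 48.9 and 71.2 FPKM. Gas1, with 74.4 and 113 FPKM against 23.9 and 19.2 FPKM, and Fzd1, with 32.9 and 58.6 FPKM against 14.1 and 16 FPKM, were lower with 4OHT under PD too.

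The day 6 response also differed between the inhibitor and siRNA experiments in 3 named genes by the limma test of that difference. The differences on the log2 scale were −3.40 for Trpm6 (adjusted p = 0.0253), −2.21 for Bnip3 (0.00021) and −1.03 for Nsdhl (0.0248). Trpm6 had 0.676 and 0.698 FPKM with siCtrl and 0.163 and 0.370 FPKM with 4OHT + siCtrl, and Nsdhl had 26.1 and 27.8 FPKM against 13.1 and 13.0 FPKM. In all 3 genes the siCtrl libraries lay below the untreated libraries.

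Loci without a gene name, which no comparison above used, were assembled inside more VL30 elements of the classes counted at day 6 than in untreated cells. VL30 is an ERV family whose U3 classes differ in their long terminal repeats, and an element was counted where a locus lay at least 50% inside it, by the positions in mm9 of the study's own list. Of 71 U3 I elements, 11 and 11 held a locus in the untreated libraries and 53 and 53 at day 6. Of 66 U3 III elements, 7 and 4 did in the untreated libraries and 48 and 51 at day 6. Of 25 U3 IV elements, 2 and 1 did in the untreated libraries and 10 and 10 at day 6. The siRNA experiment gave 10 and 10 U3 I elements with siCtrl and 51 and 54 with 4OHT + siCtrl, and 7 and 4 U3 III elements against 49 and 55. Replicate 2 of 4OHT + siCtrl, in which the interferon genes were low, was near replicate 1 in these counts of elements. Its loci had a higher summed FPKM, at 77343 against 38826 in U3 I and 56823 against 21546 in U3 III. Its loci without a gene name numbered 4492, against 3557 in replicate 1 and 2712 and 2500 with siCtrl. A link between these elements and the interferon genes was not tested. Elements of U3 II, the class that the study found unaffected, were not counted. Loci without a gene name numbered 2524 and 2437 in the untreated libraries and 2828 and 2926 at day 6. An element without a locus may still be transcribed, and the difference was not tested.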

How the results depend on the processing

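At 4OHT day 6 the 1289 calls became 2930 with no fold limit and 2297 with a limit of 1.5-fold, and ranged from 689 to 1160 when any of the 4 libraries was left out. The calls with 4OHT + siCtrl, 659 in all, became 366 with no filter on low values and ranged from 108 to 1130 with a library left out. The 30 genes with another response in the siRNA experiment became 19 without genes listed at 0 beside 5 FPKM, an alternative added after seeing the data, and ranged from 15 to 730 with a library left out. The 83 genes with another response under PD ranged from 34 to 154. Median-ratio scaling split the difference between experiments into 17 higher and 7 lower, against 17 and 13. The other settings kept each total within 1.5 times. At a pseudocount of 1 the genes called higher were 383 at day 6 (576 otherwise) and 164 with 4OHT + siCtrl (285). None of the 1289 genes called at day 6 turned direction in any of 17 other fits. The replicate numbers were not taken to pair the libraries, although PD, day 6 and 4OHT with PD deviated together, and with the replicate number as a block the counts were 1368, 505, 21 and 70. Of the last, 54 were among the 83. Of 190 gene results, calls were lost for 24 with no filter, 15 at a pseudocount of 1, 12 with only the 4 libraries compared, and 35 without either untreated library. With 2 libraries a group and at most 12800000 fragments in each, smaller changes of low genes were not detectable.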

Other observations

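Other genes of cell surface and metabolism moved at day 6. Gsta4, a glutathione transferase that clears lipid aldehydes, rose from 27.4 and 24.7 FPKM to 151 and 213 FPKM (log2 fold change 2.78, SE 0.36, adjusted p = 0.00239 in limma), and was at 17.4 and 16.5 FPKM with siCtrl and 86.4 and 501 FPKM with 4OHT + siCtrl. Itgb7, an integrin chain best known from lymphocytes, rose from 0.888 and 1.01 FPKM to 5.69 and 4.13 FPKM (log2 fold change 2.24, SE 0.27, adjusted p = 0.00182 in limma), while the haematopoietic markers Cd3e, Adgre1, Cd52 and Vav1 were at 0 in all 4 libraries. With 4OHT + siCtrl Itgb7 had 4.84 and 5.31 FPKM, against 0.346 and 0.453 FPKM with siCtrl. The day 6 libraries lay above the untreated libraries in both genes.

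Among the genes that fell, Kctd12, an auxiliary subunit of GABA-B receptors joined with Mir5130, had 33.3 and 32.9 FPKM in untreated cells and 0.872 and 1.27 FPKM at day 6 (log2 fold change −4.85, SE 0.41, adjusted p = 0.000501 in limma). Medag, a gene of adipocyte differentiation, had 61.5 and 60.2 FPKM against 1.86 and 3.51 FPKM (log2 fold change −4.52, SE 0.35, adjusted p = 0.00033 in limma). Both were also lower with 4OHT + siCtrl, where Kctd12 had 2.00 and 1.46 FPKM against 60.1 and 59.2 FPKM and Medag had 3.24 and 4.28 FPKM against 45.4 and 44.4 FPKM. Fgfbp1, a carrier of fibroblast growth factors, had 28.6 and 28.2 FPKM in untreated cells and 0.860 and 0.0823 FPKM at day 6, and its log2 fold change of −6.09 was −4.89 without day 6 replicate 2. Its level was 0.862 and 0.680 FPKM with siCtrl, below that of the untreated libraries, and 0.173 and 4.24 FPKM with 4OHT + siCtrl.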
